A study of Caenorhabditis elegans with 2 samples.

Results

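This account covers 10 genes of sex determination and X chromosome dosage compensation in *Caenorhabditis elegans*: *xol-1*, *sdc-1*, *sdc-2*, *sdc-3*, *dpy-21*, *dpy-26*, *dpy-27*, *dpy-28*, *dpy-30* and *her-1*. They are 10 of the 19973 annotated protein-coding genes, and they were chosen from a readout of these data, because chromosome X held many of the strongest peaks and 1 of those peaks lay upstream of *xol-1*. The study mapped where ZTF-11, a zinc finger protein, binds by chromatin immunoprecipitation followed by sequencing (ChIP-seq). Whole L4 larvae, the last larval stage, were used as 1 group of 2 biological replicates. Both replicates came from strain OP236, which carries the *unc-119* mutation ed3 on chromosome III and the integrated transgene wgIs236, a copy of *ztf-11* fused to the fluorescent protein eGFP. The labels give the antibody target as ztf-11 and the sex as pooled male and female, without the share of males. The larvae were not sorted by sex or by tissue, so a peak can come from any sex and any cell type. With 1 group there is no contrast between conditions, and no test was made on the genes, since they were picked with their peaks known.

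Dosage compensation in *C. elegans* lowers transcription from both X chromosomes of XX hermaphrodites to match the single X of XO males. A condensin-like complex is recruited to X at sites that carry a short G and C rich motif, and it spreads from there along the chromosome. The switch that decides between the XX and XO programs is *xol-1*, which is active in XO embryos and blocks the action of the *sdc* genes. In XX embryos the SDC proteins load the complex on X and also silence *her-1*, the gene for the male-promoting signal. ZTF-11 is a Myt1-type zinc finger protein, a kind known as repressors of non-neuronal fates in newly forming neurons.

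A window was drawn for each gene from 6 kb upstream of its annotated 5′ end to its last annotated base, and a peak was counted where its summit lay inside. Positions are in genome build ce11. The lists give each peak a signal value by the authors, whose scale is not stated, so signals were compared within a list and ranks (1 is the strongest nuclear peak) were used across lists. Of the 4 lists used, the authors' thresholded list held 47 peaks with signals from 27.2 to 77.1, which are also the 47 at the top of the pooled relaxed list of 30000 peaks. The next pooled peak had a signal of 27.1. Relaxed lists of single replicates held 30000 peaks of a median 390 bp (replicate 1) and 22869 peaks of a median 196 bp (replicate 2). Relaxed lists hold many weak peaks by design, and the median pooled signal was 7.71. No list holds read counts, so the depth of the libraries is unknown.

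The sequence of the *xol-1* peak is shown first, because it carries a word known from dosage compensation. The peak spanned 280 bp at chrX:8036242-8036521. It lay between protein-coding genes, with its summit 4931 bp upstream of *xol-1* and 4768 bp from C34D10.1, the next gene on the other side. The sequence below is the plus strand from the RefSeq genome, the strand on which *xol-1* lies. Capitals mark the 2 copies of CGCAGGG, read on either strand, the core of the motif at recruitment sites of the dosage compensation complex.
xol-1 peak: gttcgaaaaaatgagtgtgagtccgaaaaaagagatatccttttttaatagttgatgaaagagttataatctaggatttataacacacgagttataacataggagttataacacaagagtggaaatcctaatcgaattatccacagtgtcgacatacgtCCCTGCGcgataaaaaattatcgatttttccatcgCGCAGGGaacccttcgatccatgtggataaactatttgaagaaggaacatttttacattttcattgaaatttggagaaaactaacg
The copies began at positions 160 and 195 of the peak, on opposite strands, with 28 bp between them. Their centres were 22 and 57 bp from the summit. No second locus in the genome matched the peak sequence at 80% identity over 50% of its length.

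By signal rank, pooled data and replicate 1 gave *xol-1* a strong peak, and replicate 2 a weak one. Its signal was 37.3 in the pooled list, where it ranked 18 of 30000. The overlapping peak in replicate 1 had a signal of 31.9 and also ranked 18, with its summit 40 bp away. In replicate 2 the overlapping peak had a signal of 5.52 and ranked 3260 of 22869, with its summit 1 bp away. The position was thus shared closely by both replicates and the rank by signal was not. The deposited −log10 q value of this peak was 0.629 in replicate 1 and 3.57 in replicate 2, each the highest of its list. In replicate 2 weaker peaks shared that value, such as 1 in the *sdc-1* window at rank 8682 (signal 3.81). It therefore does not set the *xol-1* peak apart there. Whether these values were computed alike in each list is not known. All 3 peaks contained both copies of the word.

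Replicate 2 had a stronger peak nearby, with a signal of 7.52 and rank 1076, whose summit was 398 bp from the pooled summit and 4533 bp upstream of *xol-1*. It overlapped a tRNA gene and the noncoding RNA gene C18A11.13, which are 303 and 292 bp from the pooled summit. No other pooled peak had its summit in the 9097 bp window, so the 3097 bp body of *xol-1* held none. Replicate 1 had 1 further peak in the window (signal 5.88, rank 26828). Replicate 2 had 3 others, at ranks 11941, 14763 and 15077.

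**Figure D1:**
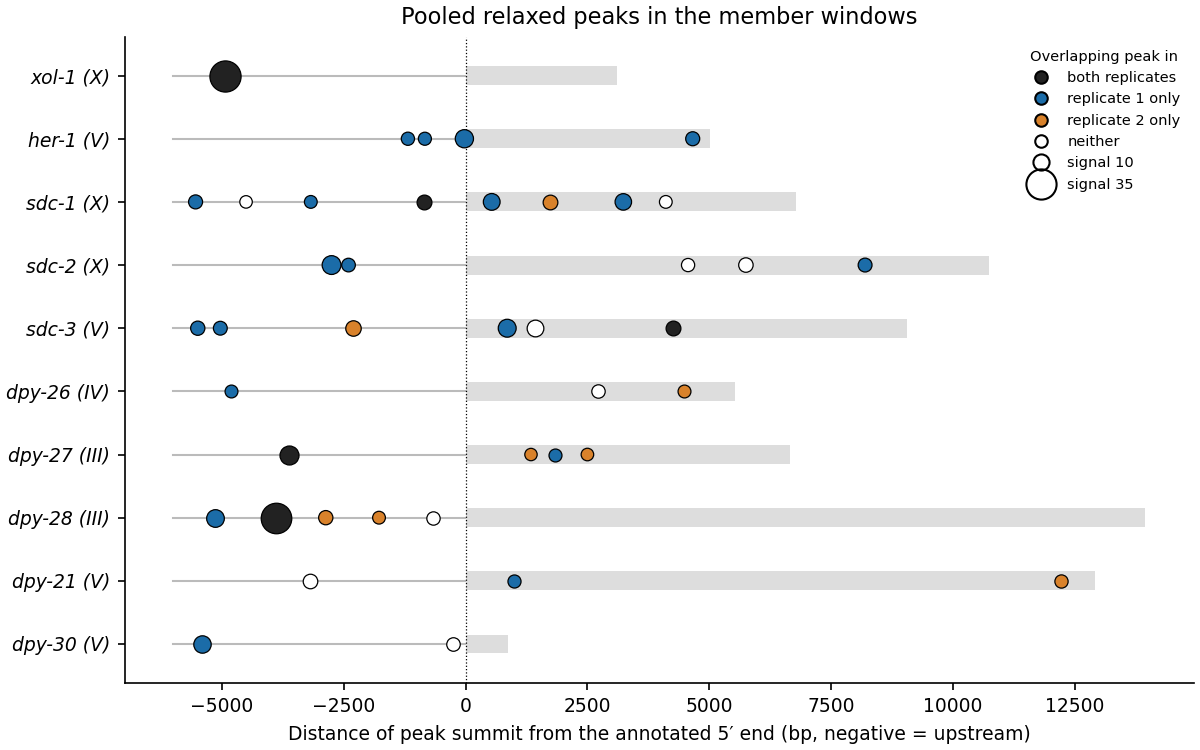
Summits of the 41 pooled peaks in the windows of the 10 genes, by distance from the annotated 5′ end in bp (negative is upstream), with gene bodies as grey bars, circle area by signal and colour by overlap with a replicate peak. The large circles are the *xol-1* peak at 4931 bp upstream and the *dpy-28* peak at 3887 bp upstream.

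The map of summits shows that both thresholded peaks lay far up the 6 kb stretch and not at the 5′ end of the gene. Thresholded summits were found in the windows of 2 of the 10 genes, *xol-1* and *dpy-28*, where 0.516% of all protein-coding genes had one. That count was part of the choice of the genes and nothing is read from it. With 2 kb upstream in place of 6 kb, 0 of the 10 genes had one, where 0.295% of all genes did.

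CGCAGGG was common in the strongest X peaks, of which the *xol-1* peak is 1. Of the 20 thresholded peaks on X, 14 contained it, or 70% (exact 95% interval 45.7 to 88.1, counting error only). Of the 27 thresholded autosomal peaks, 0 contained it. Among 280 bp tiles, the width of these peaks, 0.452% of 63281 on X and 0.436% of 294832 on autosomes did. Both strands were searched. The word was sought because of its known role on X, and the peaks on X had been seen to be many, so these shares are a description.

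Below the thresholded list the word became rare on X. It was in 0 of the 37 X peaks in the rest of the 200 strongest and in 5 of the 167 X peaks in the rest of the 1000 strongest. In the rest of the 5000 strongest it was in 2 of 759 X peaks, and beyond those in 17 of 4697. Over the whole pooled list the share was 0.669% of 5680 peaks on X and 0.551% of 24320 on autosomes.

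**Figure D2:**
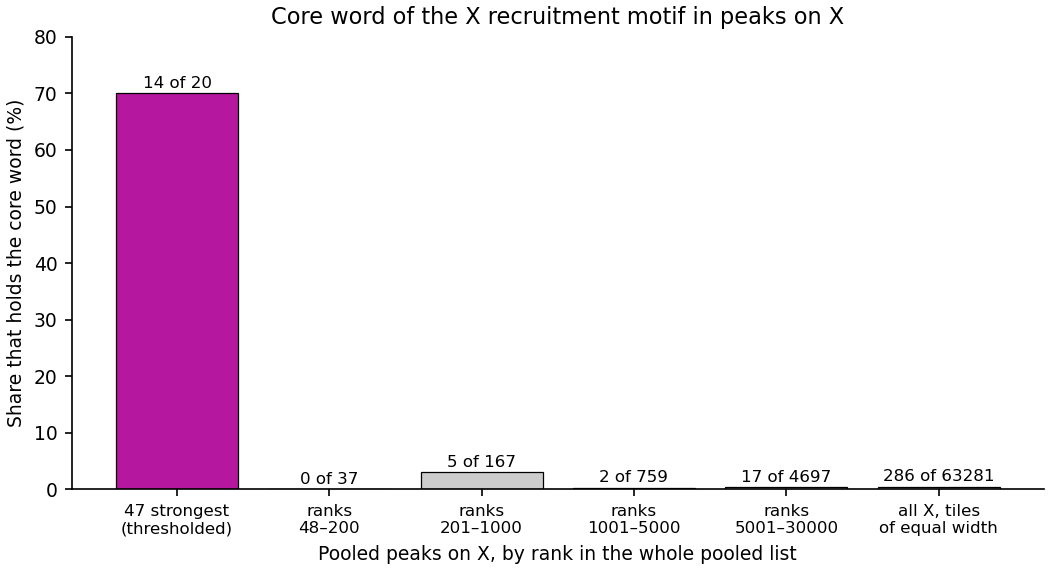
Percent of 280 bp X sequences that contain CGCAGGG on either strand, for pooled peaks grouped by rank and for tiles of the whole chromosome. The thresholded peaks stand at 70%, the other groups of peaks between 0 and 2.99%, and the tiles at 0.452%.

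The plot of these shares has 1 high bar, the group that holds the *xol-1* peak. Peaks with 2 copies were rarer still: 4 pooled X peaks of 5680 had them, and all 4 were thresholded. They ranked 1, 3, 9 and 18, the last being the *xol-1* peak. The 8 copies are set out below, each read along the strand of the word from RefSeq sequence in build ce11, with the word in capitals and 10 bases on either side, so that the bases around it can be compared.
xol-1 peak, copy 1, chrX:8036391-8036417, minus strand: ttttttatcgCGCAGGGacgtatgtcg
xol-1 peak, copy 2, chrX:8036426-8036452, plus strand: ttttccatcgCGCAGGGaacccttcga
Peak of rank 1, copy 1, chrX:11094115-11094141, minus strand: ttttatatcgCGCAGGGagcttatgca
Peak of rank 1, copy 2, chrX:11094216-11094242, minus strand: gaaccattcgCGCAGGGacacctcact
Peak of rank 3, copy 1, chrX:6296539-6296565, plus strand: ttacatttggCGCAGGGggtcaccata
Peak of rank 3, copy 2, chrX:6296567-6296593, plus strand: ataggtatcgCGCAGGGaagatttacc
Peak of rank 9, copy 1, chrX:806665-806691, plus strand: gcgattatcgCGCAGGGgtgtttgttg
Peak of rank 9, copy 2, chrX:806741-806767, plus strand: aaccgatacgCGCAGGGaaaaaaaaat
The letters around the word were alike. These copies were found by CGCAGGG alone, but that word is the core of a known motif. Likeness around it is therefore a description and not separate support. Over the 18 copies in the 14 thresholded peaks, the base before the word was G in 16, the one before that C in 12, and the third T in 14. The base after it was A in 14 of 18. Both copies at *xol-1* had the commonest base at each of these 4 places.

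The word peaks were more often among the strongest in replicate 1 than in replicate 2. Of the 14 thresholded X peaks with the word, 13 overlapped a peak among the 47 strongest of replicate 1, and 5 overlapped one among the 47 strongest of replicate 2. The *xol-1* peak was among the 13 and not among the 5. Of the 6 thresholded X peaks without the word, 3 and 4 did so in replicates 1 and 2. In the replicates' own lists, 14 of the 22 X peaks among the 47 strongest of replicate 1 had the word (63.6%, exact 95% interval 40.7 to 82.8), and 4 of 18 in replicate 2 (22.2%, exact 95% interval 6.41 to 47.6). Both intervals give counting error over peaks only, not variation between replicates, and no test was made between the replicates. The counts of peaks with the word were the same within 280 bp around the summits, so they did not rest on the different peak widths.

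**Figure D3:**
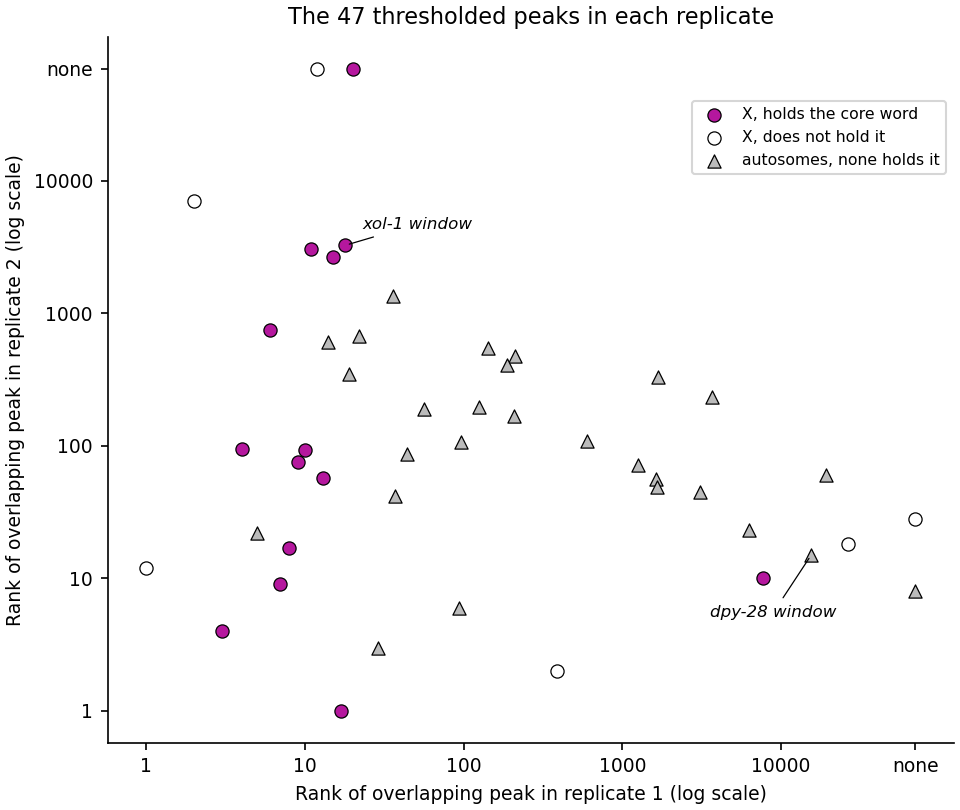
Rank in replicate 1 (horizontal) against rank in replicate 2 (vertical) of the peak that overlaps each of the 47 thresholded peaks, both on log scales, with peaks on X filled where they contain CGCAGGG and autosomal peaks as triangles. The *xol-1* peak ranks 18 and 3260, and the *dpy-28* peak ranks 15486 and 15.

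The plot of ranks in the replicates sets the peaks of *xol-1* and *dpy-28* in opposite corners. No word copy was found in the other pooled peaks of these genes: 1 of their 41 pooled peaks contained CGCAGGG, that of *xol-1*. The windows of *sdc-1* and *sdc-2*, which are also on X, had no copy at all. The single copy elsewhere was in the body of *her-1* on chromosome V, 1980 bp downstream of its 5′ end and outside any pooled peak.

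The 3 *sdc* genes encode the proteins that bring the complex to X. Their strongest pooled peaks ranked from 1124 to 4058 of 30000. The deposited −log10 q values of these peaks were 0.466 (*sdc-2*), 0.368 (*sdc-3*) and 0.254 (*sdc-1*), where every thresholded peak had 2.12. Outside the 2 thresholded peaks, the highest such value among the pooled peaks of the 10 genes was 0.484, at *dpy-27*. SDC-2, the hermaphrodite-specific protein needed for loading, had its strongest pooled peak at chrX:11519815-11520094, with a signal of 13.6 and rank 1124. The summit was 2752 bp upstream of *sdc-2* and nearer to the 5′ end of *hpo-34*, at 889 bp. Replicate 1 had a peak there at rank 5918 (signal 9.90) and replicate 2 had none. None of the 5 pooled peaks of *sdc-2* overlapped a replicate 2 peak, where 25.0% of all pooled peaks did. The strongest replicate 2 peak in the window, elsewhere, ranked 5426 (signal 4.65).

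*sdc-1*, which encodes a zinc finger protein, had 8 pooled peaks in 12772 bp, the most of the 10 genes. Its strongest had a signal of 10.8 and rank 4058, in an intron 535 bp downstream of the 5′ end. Replicate 1 had an overlapping peak at rank 3651 (signal 10.98) and replicate 2 had none. The strongest replicate 2 peak in the window ranked 5157 (signal 4.74). A peak 850 bp upstream of *sdc-1* was weak in the pooled list (rank 11199) but was found in both replicates, at ranks 29007 and 17095.

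*sdc-3*, on chromosome V, encodes another zinc finger protein of the complex. Its strongest pooled peak, at chrV:15047214-15047493, had a signal of 12.3 and rank 2008 and lay in an intron 853 bp downstream of the 5′ end. The overlapping peak of replicate 1 had a signal of 15.4 and rank 462. Replicate 2 had none there, and its strongest peak in the window had a signal of 4.07 and rank 7518. At all 3 *sdc* genes the strongest pooled peak overlapped a replicate 1 peak and no replicate 2 peak, which was also so of 51.3% of all pooled peaks.

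The strongest pooled peaks in the 6 kb windows of the condensin subunits differed widely in rank. *dpy-28* encodes a HEAT-repeat subunit, and its window held the pooled peak of rank 19, with a signal of 35.8, at chrIII:10759104-10759383. The summit was 3887 bp upstream of *dpy-28*, on the far side of *tasp-1*, and 63 bp from the 5′ end of *tasp-1*, which encodes a homologue of the protease taspase. *tasp-1* lies on the same strand and ends 109 bp before *dpy-28*. The sequence of this peak up to the first annotated exon of *tasp-1*, chrIII:10759104-10759306 on the plus strand from RefSeq, is shown because it is the second thresholded peak of these genes. Capitals mark GAGAGAG, the GA repeat word searched on both strands.
dpy-28 peak: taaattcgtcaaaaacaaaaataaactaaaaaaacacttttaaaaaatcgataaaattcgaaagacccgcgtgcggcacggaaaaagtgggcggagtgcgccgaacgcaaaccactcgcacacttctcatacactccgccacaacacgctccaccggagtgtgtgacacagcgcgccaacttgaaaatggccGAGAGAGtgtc
This peak had a G and C content of 47.1%, against 34.6% in the *xol-1* peak, and it contained no CGCAGGG. The GA repeat word was in 4.74% of all pooled peaks.

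The *dpy-28* peak was strong in replicate 2, with a signal of 21.4 and rank 15, and weak in replicate 1, with a signal of 7.47 and rank 15486. That is the opposite of the *xol-1* peak. A second pooled peak in the window, 5139 bp upstream in an exon of K01G5.10, ranked 2321. It overlapped the replicate 1 peak of rank 1627 (signal 12.7) and no replicate 2 peak. The 13946 bp body of *dpy-28* held no pooled summit. Replicate 2 alone had a peak at rank 996 (signal 7.64) in an exon, 1953 bp downstream of the 5′ end.

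*dpy-27* encodes the SMC subunit that is particular to the dosage compensation complex. Its strongest pooled peak, at chrIII:3823172-3823451, had a signal of 13.9 and rank 987. It lay 3633 bp upstream in an intron of the neighbouring *amx-1*, an amine oxidase family gene, 909 bp from that gene's 5′ end. Both replicates had an overlapping peak but neither was strong, at rank 16744 (signal 7.24) in replicate 1 and rank 15262 (signal 2.77) in replicate 2. The strongest replicate 2 peak in the window was another, at rank 1576 (signal 6.78), in an exon of *dpy-27*. *dpy-26*, which encodes the kleisin subunit that joins the complex, had the lowest value of the 10 genes in the pooled list. Its strongest pooled peak had a signal of 6.90 and rank 20317 and overlapped no replicate peak. The strongest peak in replicate 1 ranked 13637 (signal 7.81) and that in replicate 2 ranked 2490 (signal 5.97).

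*dpy-21* encodes a histone demethylase of the complex that acts on lysine 20 of histone H4. Its strongest pooled peak, 3204 bp upstream, had a signal of 8.14 and rank 12618 and overlapped no replicate peak. Each replicate had a stronger peak by its own ranks in the gene body, at different places. In replicate 1 it was at rank 2286 (signal 11.98), 1130 bp downstream of the 5′ end, and in replicate 2 at rank 1142 (signal 7.38), 12245 bp downstream. *dpy-30* encodes a subunit that is shared with the histone H3 lysine 4 methyltransferase complex COMPASS. Its strongest pooled peak had a signal of 11.6 and rank 2774, in an exon of the receptor gene *srd-4*, 5411 bp upstream of *dpy-30*. Replicate 1 had that peak at rank 3305 (signal 11.2). Replicate 2 did not, but had a peak at rank 473 (signal 9.22) in an exon of *dpy-30*, 276 bp downstream of the 5′ end.

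*her-1* encodes the secreted protein that promotes male fate by binding the receptor TRA-2, and it is the gene that SDC proteins silence directly. Its strongest pooled peak, at chrV:9696849-9697128, lay nearer to its gene's own 5′ end than the strongest peak of any other of the 10, with the summit 26 bp upstream. It had a signal of 12.7 and rank 1659. Replicate 1 had an overlapping peak at rank 28619 (signal 5.69), near the end of its list, and replicate 2 had none. All 4 pooled peaks of *her-1* overlapped a replicate 1 peak, where 61.3% of all pooled peaks did. None of the 4 overlapped a replicate 2 peak, where 25.0% of all did. Overlap with replicate 1 only was found for 51.3% of all pooled peaks. The strongest replicate 2 peak of the window was 4578 bp upstream, with a signal of 8.10 and rank 782.

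To set the 10 genes beside the rest, the signal of the strongest peak in each window was given as a percentile among the windows of all 19973 protein-coding genes, where a gene with no peak counted as 0. In the pooled list the percentiles ran from 18.7 (*dpy-26*) to 99.9 (*xol-1* and *dpy-28*), with a median of 84.9. The next were *dpy-27* at 91.5, *sdc-2* at 90.4, *her-1* at 86.2, *sdc-3* at 83.5, *dpy-30* at 78.1, *sdc-1* at 69.7 and *dpy-21* at 33.7. Among the 2000 windows nearest in length the median was 83.0, and some genes stood lower, such as *dpy-21* at 14.7 and *sdc-1* at 58.9. *dpy-30* rose to 83.5. Among all windows the median of the 10 genes was 73.6 in replicate 1 and 88.9 in replicate 2.

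**Figure D4:**
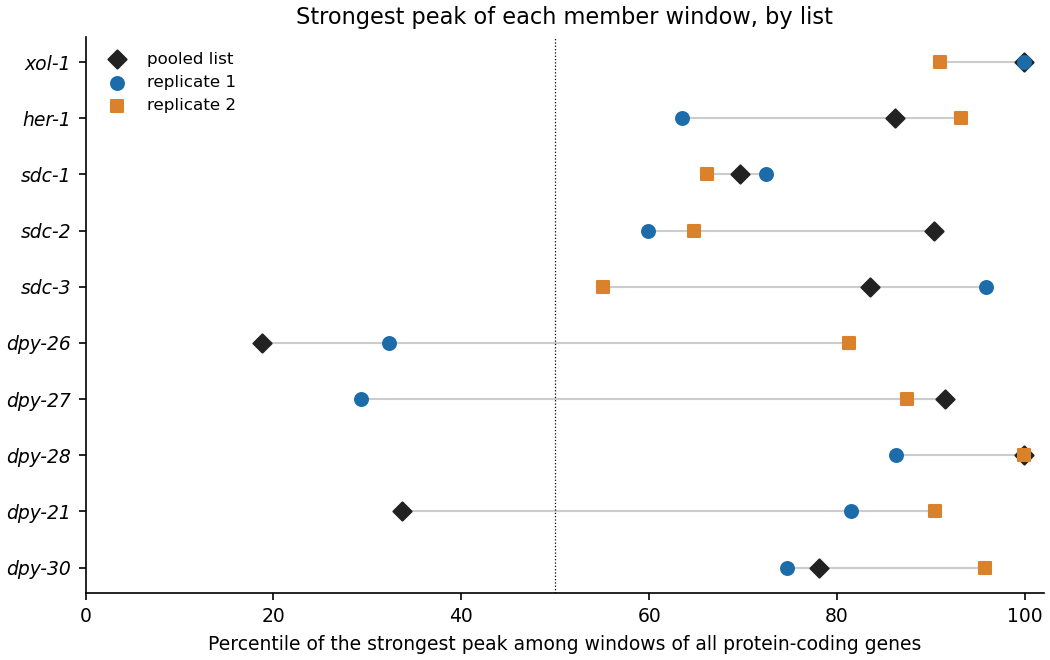
Percentile of the strongest peak in each gene's window among all 19973 protein-coding genes, for the pooled list and for each replicate list. *xol-1* is above 90 in all 3 lists, in replicate 2 by a different peak (rank 1076) from the one the other lists share (rank 3260), and *dpy-26* runs from 18.7 in the pooled list to 81.3 in replicate 2.

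The plot of percentiles shows how far the lists differed for single genes. *dpy-21* had 33.7 in the pooled list, 81.5 in replicate 1 and 90.5 in replicate 2. *dpy-27* had 91.5, 29.3 and 87.4 in the same lists, and *sdc-2* had 90.4, 59.9 and 64.7. A pooled peak among the 1000 strongest was found in 3 of the 10 windows (*xol-1*, *dpy-27*, *dpy-28*), where 8.62% of all protein-coding genes had one. With 2 kb upstream it was 0, where 5.31% had one. Among the 2000 strongest pooled peaks 5 of the 10 genes had one, where 16.4% of all did, and among the 5000 strongest 8 of 10, where 35.9% did. In replicate 1 alone there were 2 such genes (*xol-1*, *sdc-3*), where 8.8% of all had one. In replicate 2 alone there were 3 (*dpy-28*, *dpy-30*, *her-1*), where 8.38% had one. No gene of the 10 had such a peak in both replicates, where 1.44% of all genes did. These shares of all genes were not matched for window length. The windows of the 10 genes ran from 6867 bp (*dpy-30*) to 19946 bp (*dpy-28*), where the median over all protein-coding genes was 8027 bp.

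All 10 windows held a pooled peak, as did 90.9% of all protein-coding windows, and the number of pooled peaks per 10 kb was near that of the genome. The 10 windows held 41 pooled summits in 134616 bp, or 3.05 per 10 kb, where the nuclear genome held 2.99. Replicate 1 had 36 summits there, or 2.67 per 10 kb, where the genome held 2.99. Replicate 2 had 49, or 3.64 per 10 kb, where the genome held 2.28. The 3 windows on X had 3.63 pooled summits per 10 kb and the 7 on autosomes 2.81, but the order turned in replicate 2, with 3.37 on X and 3.75 on autosomes. In replicate 1 the values were 3.37 and 2.40. By place, the upstream stretches had 3.83 pooled summits per 10 kb and the gene bodies 2.41. In replicate 1 these were 3.50 and 2.01, and in replicate 2 they were close, at 3.67 and 3.62.

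Few of these peaks were found in both replicates. Of the 41 pooled peaks, 24 (58.5%) overlapped a replicate 1 peak by 1 bp or more and 13 (31.7%) a replicate 2 peak. Over all 30000 pooled peaks the shares were 61.3% and 25.0%. Both replicates had a peak at 5 of the 41 (12.2%), and at 3001 of all 30000. Those 5 were 1 each at *xol-1*, *sdc-1*, *sdc-3*, *dpy-27* and *dpy-28*, and 9 of the 41 overlapped neither replicate.

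Other words searched in the 41 peaks were about as common as in all pooled peaks. AAGTT, the core bound by Myt1 family proteins, was in 31 of 41 (75.6%), and in 69.0% of all. The longer AAAGTTT, each match of which is also a match of the shorter word, was in 9 (22.0%), and in 20.6% of all. GAGAGAG was in 2 (4.88%). TGGGTGG, the core of the site of the sex determination factor TRA-1, was in 0, and in 1.99% of all. Of the words searched, the *xol-1* peak contained CGCAGGG and none of the others. The median G and C content was 36.4% in the 41 peaks (range 23.2 to 54.3) and 36.1% in all pooled peaks.

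The other genes of the pathway were taken as 34 genes in 7 groups, of which all 34 were annotated. A thresholded summit was in the window of 2 of them, where 0.516% of all protein-coding genes had one. *mix-1* encodes the SMC subunit that dosage compensation shares with the mitotic condensins, and its peak in an intron had a signal of 28.2 and rank 43. That peak ranked 19113 in replicate 1 and 60 in replicate 2. *set-4* encodes a methyltransferase for lysine 20 of histone H4, the residue that DPY-21 demethylates. Its peak, 313 bp upstream of its own 5′ end, had a signal of 28.9 and rank 40, and ranked 602 in replicate 1 and 109 in replicate 2. *set-4* was the 1 gene of the 34 with a peak among the 1000 strongest in each replicate, where 1.44% of all genes had that.

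Of the 34 windows, 7 held 1 of the 1000 strongest pooled peaks, where 8.62% of all protein-coding windows did. Besides *mix-1* and *set-4* these were *ash-2* and *cfp-1*, which encode COMPASS subunits and so partners of DPY-30, with ranks 270 and 958. The others were the F-box gene *sel-10* (rank 332), *fog-3* (rank 845), which promotes sperm fate, and *tra-1* (rank 968), the last factor of the somatic pathway. The *ash-2* and *cfp-1* peaks lay upstream, in exons of other genes, Y17G7B.20 and *ccar-1*. Those of *sel-10*, *fog-3* and *tra-1* lay in exons of the genes themselves. The *sel-10* summit was nearest to the 5′ end of *hpo-31*, at 680 bp, and the *tra-1* summit was 23916 bp downstream of the 5′ end of *tra-1*. In replicate 1 the count was 3 of 34, about the 8.8% of all genes, and in replicate 2 it was 6 of 34, where 8.38% of all genes had one. With 2 kb upstream the pooled count was 6 of 34, where 5.31% of all genes had one. A thresholded summit was then in 2 of the 34 windows, where 0.295% of all genes had one. Both counts were 0 for the 10 genes at that length.

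**Figure D5:**
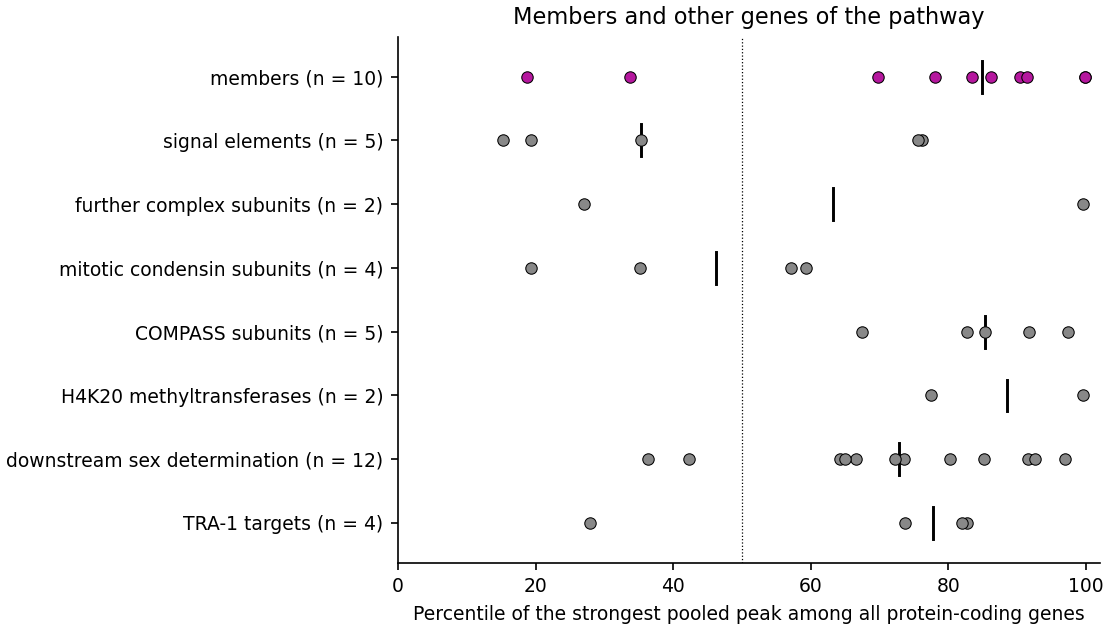
Percentile of the strongest pooled peak in the window among all protein-coding genes, for the 10 genes and for the 34 other pathway genes by group, with the median of each group as a line. The medians are 84.9 for the 10 genes and 73.6 for the 34 others.

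In the plot of the pathway groups the 10 genes and the 34 others covered much the same range. The 10 genes ran from 18.7 to 99.9, and the 34 genes from 15.3 to 99.6. The X and autosomal signal elements that set *xol-1* had a median of 35.4 over 5 genes, and the COMPASS subunits 85.3 over 5. The 12 downstream genes of sex determination had a median of 72.9, and the 4 mitotic condensin subunits 46.2. The 4 TRA-1 targets had a median of 77.8. The groups of 2 genes, the further complex subunits and the methyltransferases for lysine 20 of histone H4, had 63.3 and 88.5.

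The border of the windows, set at 6 kb, was not crowded. The farthest upstream summit inside was that of *sdc-1* at 5543 bp (signal 7.53), and the nearest outside was that of *sdc-3* at 6389 bp (signal 6.01, rank 27912). The strongest of the 10 nearest summits outside was 8453 bp upstream of *dpy-26*, with a signal of 10.5. The window of *ztf-11* itself, on chromosome I, had 7 pooled peaks, the strongest at rank 728 with a signal of 14.5. The transgene of the strain is a further copy of *ztf-11*, and whether that copy adds to these peaks was not tested.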

How the data were processed

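The data are ChIP-seq peak lists for ZTF-11 fused to eGFP in L4 larvae (1 group, 2 biological replicates). Per the labels, fragments were 150 to 350 bp long. Per the descriptions deposited with the lists, the authors called relaxed peaks for single replicates and for the pool of both, and derived the thresholded list by irreproducible discovery rate (IDR). For the aligner, the peak caller and its settings, a name is not given in the sources used here. Control alignments and lists in build ce10 were not used here. The authors' signal value per peak, of unstated scale, ranked peaks within a list. The deposited column of the −log10 of a q value ran from 0.0352 to 2.12 in the pooled list, 0.0262 to 0.629 in replicate 1 and 2.58 to 3.57 in replicate 2, and was not used to select peaks. Every value in replicate 1 was thus below every value in replicate 2. Whether the column was computed alike in each list is not known, and results from replicate 1 and from the lists made with it carry this doubt.

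Genes were those of Ensembl release 115 and sequence that of RefSeq (WBcel235, the coordinates of ce11). Mitochondrial peaks were left out. The 10 genes, the pathway lists and the words were chosen with earlier results of these data known. Named are the 10 genes, other pathway genes with a thresholded peak or 1 of the 1000 strongest pooled peaks, genes nearest to or holding a peak of the 10 genes, and *ztf-11*. C34D10.1, the genes near other peaks and the RNA genes near the *xol-1* peak were named after their values were seen. Copies of the strongest peaks were searched with BLAST 2.17.0. The counting was tested on simulated data. Exact intervals are Clopper-Pearson. Alternatives were other window lengths, peak numbers, overlap rules and backgrounds, and each replicate alone. Those for the pathway count and CGCAGGG were added after the data were seen. Tools were Python 3.11.15 with scipy 1.17.1, pandas 2.3.3, matplotlib 3.10.9 and numpy 2.4.6.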

Additional observations from a re-analysis of the deposited data

How the results depend on the processing

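Of the 39 alternative values of main results, 26 were labelled the same and 13 moved. The labels are coarse: 54 pooled peaks with 10 kb upstream, against 41, were labelled the same. With 2 kb upstream in place of 6 kb, genes with a thresholded summit numbered 0 in place of 2, genes with 1 of the 1000 strongest pooled peaks 0 in place of 3, and pooled peaks 25 in place of 41, and the median percentile was 39.7 in place of 84.9. Among the 2000 and the 5000 strongest pooled peaks, 5 and 8 of the 10 genes had one, where 16.4% and 35.9% of all genes did. At or above the median signal, 19 of the 41 peaks remained. Peaks with a counterpart in both replicates numbered 3 in place of 5 under either stricter rule, a larger overlap (50% of the shorter peak) or summits within 150 bp. With 1 replicate left out, the median percentile ran from 73.6 to 88.9, genes with 1 of the 1000 strongest peaks from 2 to 3, peaks in the windows from 36 to 49, other pathway genes with 1 of the 1000 strongest from 3 to 6 (7 pooled), and X peaks with CGCAGGG among the 47 strongest from 4 to 14. The *xol-1* peak ranked 18 in replicate 1 and 3260 in replicate 2. For single genes, 39 of 60 alternative percentiles were labelled the same and 21 moved, but these labels did not follow the size of the change. *sdc-3* went from 83.5 to 55.1 without replicate 1 and was labelled the same. *sdc-2* went from 90.4 to 85.05 among windows of like length and was labelled moved. The 5 word counts over 300 bp around the summit did not change. The cause of these shifts was not tested. No paired analysis was possible because there is 1 group and no contrast. The depth behind the lists is unknown.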
